A study of Homo sapiens with 6 samples.

Results

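The enzymes described here make, break down or modify proline, or handle its relative ornithine: ALDH18A1, PYCR1, PYCR3, PRODH, ALDH4A1, OAT, ARG2 and P4HB. These 8 genes, of 57623 counted, were chosen by name with results of this comparison already known. All 8 had enough counts to enter the fit across all genes, which held 25672 genes. Because of how they were chosen, their differences between the genotypes are given as a description, and which of them passed a threshold of that fit is not evidence of its own.

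Proline is made in mitochondria and cytosol from glutamate. ALDH18A1 (P5CS) turns glutamate into pyrroline-5-carboxylate, the compound at which the proline, ornithine and glutamate routes meet, and the PYCR enzymes reduce it to proline. PRODH and ALDH4A1 run the way back, from proline to pyrroline-5-carboxylate and on to glutamate. OAT, an aminotransferase, interconverts ornithine and glutamate semialdehyde, which is in equilibrium with pyrroline-5-carboxylate. ARG2, the mitochondrial arginase, releases ornithine from arginine. P4HB is a protein disulfide isomerase and the beta subunit of the enzyme that hydroxylates proline residues of collagen.

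RNA was sequenced from HEK293 cells, an established line from human embryonic kidney, to compare gene expression with and without the mitochondrial E3 ubiquitin ligase MUL1. There were 3 libraries of the wild type (WT) and 3 of cells labelled MUL1(−/−), in which MUL1 had been inactivated with CRISPR-Cas9 in earlier work. Both were untreated and grown in DMEM with fetal calf serum, glutamine and antibiotics, and no other allele or agent is named for these libraries. The study also describes WT control clones that received the empty vector of its CRISPR-Cas9 work. It does not say whether the WT libraries came from them. The clone or clones behind the libraries are not given for either genotype. The labels do not say whether the libraries of a genotype came from separate cultures, and the study's general remark on independent experiments does not name these libraries. Errors and p-values therefore measure the spread between these libraries, which may be technical.

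The authors deposited raw counts for exon bins, stretches between neighbouring exon edges, and a gene's count here is the sum over its bins. Gene counts totalled 133966210 to 150535308 per WT library and 128431480 to 129111383 per MUL1(−/−) library, and they are given as CPM, the count scaled to a common library size with TMM factors. MUL1 itself had 14.6, 14.4 and 18.04 CPM in WT and 17.7, 15.8 and 18.2 CPM in MUL1(−/−) libraries. These values overlap, so the count of MUL1 RNA does not check the genotype labels. Of 7 genes that mark HEK293 cells, all 7 were detected in each library, with a summed level of 1228 to 1436 CPM in WT and 876 to 1044 CPM in MUL1(−/−). Among them, PAX2 ran from 7.43 to 10.2 CPM in WT and from 1.83 to 3.18 CPM in MUL1(−/−), and NEFM from 1.60 to 1.75 and from 2.96 to 3.75 CPM. The summed level of 3 fibroblast markers was 20.9 to 25.6 CPM in WT and 24.8 to 30.7 CPM in MUL1(−/−), and that of 3 blood and of 2 hepatocyte markers stayed at or under 0.5004 CPM everywhere, with CD3E at 0 in all WT libraries. The fibroblast sum hides opposite differences, since LUM was at 0.973 to 1.11 CPM in WT and 7.02 to 11.7 CPM in MUL1(−/−), and DCN at 1.08 to 1.16 and 2.48 to 3.25 CPM, while COL1A1 was at 18.8 to 23.5 and 14.2 to 17.8 CPM. The part of these markers in the results below was not tested. In bulk RNA, fewer cells of a kind and less RNA per cell cannot be told apart.

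A steep loss of PYCR1 RNA stood beside a steep gain of OAT RNA, and the other 6 enzymes kept within about 1 unit of log2 fold change. A gene was called when its adjusted p was under 0.05 and its log2 fold change lay beyond 1 either way, and OAT was called higher and PYCR1 lower in MUL1(−/−). Of all tested genes 4.17% were called higher and 3.84% lower. Since the members were picked with this contrast in view, nothing is read from their count. With the adjusted p alone, OAT and ARG2 were higher and PYCR1, ALDH18A1 and ALDH4A1 lower, against 18.7% and 18.8% of all tested genes, or 37.6% in either direction. The smallest of these differences, those of ARG2 and ALDH18A1, did not pass this threshold without WT replicate 1 or 2 or without MUL1(−/−) replicate 1 or 2. ARG2 also missed it with the replicate block and with the most counted bin, and ALDH18A1 with no filter on low counts. The WT and MUL1(−/−) values of these 5 enzymes did not overlap, as was so for 48.6% of tested genes. The median log2 fold change of the 8 enzymes was -0.07 and that of all tested genes -0.01.

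**Figure D1:**
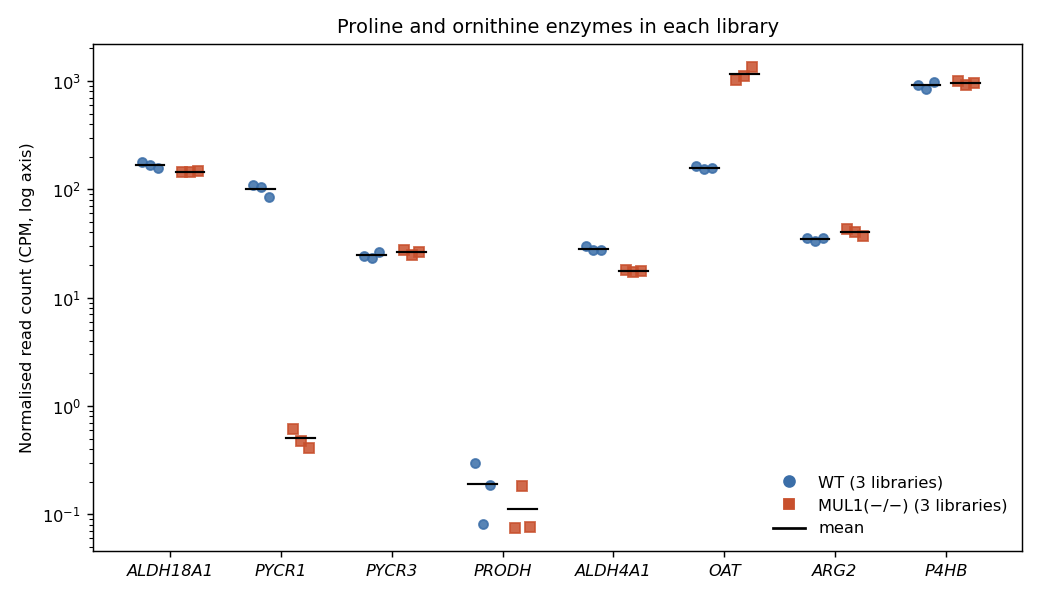
Normalised read count (CPM, log axis) of the 8 enzymes in each of the 3 WT (circles) and 3 MUL1(−/−) (squares) libraries, with a bar at each mean. PYCR1 lies between 84.2 and 110.2 CPM in WT and between 0.413 and 0.615 CPM in MUL1(−/−). OAT lies between 1021 and 1343 CPM in MUL1(−/−) against 153 to 164 CPM in WT. The other enzymes differ less between the genotypes, with ALDH4A1 at 27.5 to 29.8 CPM in WT and 17.3 to 17.9 CPM in MUL1(−/−).

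Proline synthesis was read first at ALDH18A1, which makes pyrroline-5-carboxylate from glutamate. The gene (ENSG00000059573) lies on the minus strand of chromosome 10, from 95605929 to 95656706 of GRCh38. It had 179, 168 and 158 CPM in WT replicates 1, 2 and 3 and 145, 143 and 148 CPM in MUL1(−/−) replicates 1, 2 and 3. The lowest WT library was above the highest MUL1(−/−) library, by a gap smaller than the range of the WT libraries. The means were 168 ± 10.6 CPM (SD, n = 3) and 145 ± 2.10 CPM (SD, n = 3), a log2 fold change of -0.21 (SE 0.07). Of its 21 exon bins with at least 100 counts in a library, 18 were lower in MUL1(−/−) without overlap and in 3 the genotypes overlapped. The bin at its 5′ end had 736, 777 and 608 counts in WT and 599, 586 and 594 in MUL1(−/−), or 5.10 and 4.49 CPM on average.

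PYCR1 reduces pyrroline-5-carboxylate to proline in mitochondria, and its RNA was nearly gone from the MUL1(−/−) libraries. The gene (ENSG00000183010) is on the minus strand of chromosome 17, from 81932384 to 81942412. The WT libraries held 14758, 15730 and 11185 counts, or 110.2, 106 and 84.2 CPM. The MUL1(−/−) libraries held 82, 63 and 54 counts, or 0.615, 0.478 and 0.413 CPM. WT replicate 3 was the lowest WT library, yet it was more than 100 times the highest MUL1(−/−) library. The means were 100.003 ± 13.8 CPM (SD, n = 3) and 0.502 ± 0.103 CPM (SD, n = 3), a 199-fold difference and a log2 fold change of -7.63 (SE 0.15). By log2 fold change PYCR1 ranked number 11 from the lowest of the 25672 tested genes.

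The loss was read in all well counted bins of PYCR1. Of its 41 exon bins, 25 had at least 100 counts in a library, and all 25 were lower in MUL1(−/−) without overlap. In 15 of them the MUL1(−/−) libraries held more than 3 counts in all, and these differed 33.2-fold to 433-fold. The other 10 held 1 to 3 counts over the MUL1(−/−) libraries, too few for a fold. Bins 1 to 3, at the 5′ end, held 20 counts over the WT and 3 over the MUL1(−/−) libraries and were not read. By value it was not even, as bins 19 to 34, counted from the 5′ end, held 25707 counts over the WT libraries and 57 over the MUL1(−/−) libraries, a 429-fold difference in CPM. Bins 35 to 41, the last exon, held 14099 and 100 counts and differed 134-fold. Bins 4 to 18 held 1847 and 39 counts and differed 45.2-fold. As a result the middle bins gave 61.6% ± 0.880 (SD, n = 3) of PYCR1 counts in WT but 28.5% ± 14.3 (SD, n = 3) in MUL1(−/−), and the last exon 33.9% ± 0.436 and 50.6% ± 9.01. The shares in MUL1(−/−) rest on 54 to 82 counts a library, and a read that spans several bins is counted in each. These stretches were set after the bin values were seen.

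Other genes overlap PYCR1. The files join it with MYADML2 under a single identifier, and 16.8% of its counts lie in 4 bins that MYADML2 or the antisense AC145207.4 also cover. In the 37 bins of PYCR1 that no other gene's exon touches, the mean level was 83.2 ± 11.8 against 0.378 ± 0.0870 CPM (SD, n = 3 per genotype). Hence the difference did not rest on the shared bins. The log2 fold change of AC145207.4, -7.06 (SE 0.19), came wholly from bins shared with PYCR1, so the transcripts cannot be told apart.

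**Figure D2:**
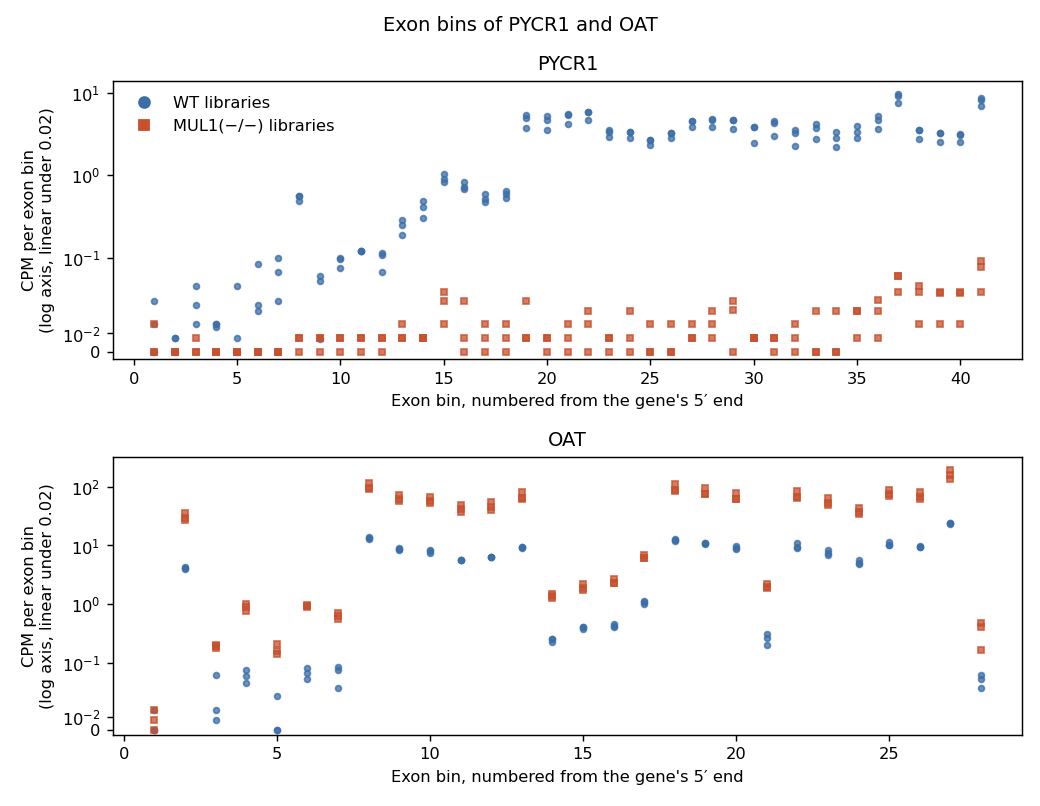
CPM of each exon bin of PYCR1 (upper) and OAT (lower), numbered from the 5′ end, in the WT (circles) and MUL1(−/−) (squares) libraries, on an axis that is logarithmic above 0.02 CPM and linear below. The WT points lie above the MUL1(−/−) points in all 25 well counted bins of PYCR1 and below them in all 23 of OAT.

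PYCR3 carries out the same reduction in the cytosol, and no such loss was seen there. This gene (ENSG00000104524) is on the minus strand of chromosome 8, from 143603913 to 143609773. It had 24.0, 23.3 and 26.4 CPM in WT and 27.7, 24.8 and 26.4 CPM in MUL1(−/−). The genotypes overlapped, in the sum and in each of its 12 bins with at least 100 counts. The means were 24.6 ± 1.60 CPM (SD, n = 3) and 26.3 ± 1.46 CPM (SD, n = 3), with a log2 fold change of 0.10 (SE 0.08).

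Proline breakdown begins with PRODH, the proline dehydrogenase of the inner mitochondrial membrane, which these cells hardly expressed. PRODH (ENSG00000100033, chromosome 22 from 18912777 to 18936553, minus strand) had 40, 12 and 25 counts in WT and 10, 24 and 10 in MUL1(−/−). That is 0.299, 0.0806 and 0.188 CPM against 0.0750, 0.182 and 0.0765 CPM, and the genotypes overlapped. The means were 0.189 ± 0.109 and 0.111 ± 0.0613 CPM (SD, n = 3), and the log2 fold change of -0.75 (SE 0.48) was within 2 standard errors of 0. No bin reached 100 counts, and 35.5% of the counts lie in bins shared with DGCR6 or AC007326.5. A difference of PRODH was not detectable at this depth.

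ALDH4A1, which oxidises pyrroline-5-carboxylate to glutamate and serves both proline and hydroxyproline breakdown, was lower in MUL1(−/−). ALDH4A1 (ENSG00000159423, chromosome 1 from 18871430 to 18902781, minus strand) had 29.8, 27.5 and 27.5 CPM in WT and 17.9, 17.3 and 17.7 CPM in MUL1(−/−). The libraries of a genotype lay close together and the genotypes were far from overlapping. The means were 28.3 ± 1.31 and 17.6 ± 0.316 CPM (SD, n = 3), a log2 fold change of -0.68 (SE 0.08), and 19 of 20 bins with at least 100 counts were lower without overlap. Here 60.5% of the counts lie in bins that the readthrough transcript AL080251.1 also covers. In the bins of ALDH4A1 alone the mean level was 11.4 ± 0.460 against 6.67 ± 0.128 CPM (SD, n = 3 per genotype).

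OAT links ornithine with pyrroline-5-carboxylate, and it was the enzyme of this group that stood out on the high side. The gene (ENSG00000065154) lies on the minus strand of chromosome 10, from 124397303 to 124418976, and shares no bin with another gene. WT replicates 1, 2 and 3 had 164, 153 and 156 CPM, and MUL1(−/−) replicates 1, 2 and 3 had 1021, 1103 and 1343 CPM. Every MUL1(−/−) library was more than 6 times the highest WT library, and MUL1(−/−) replicate 3 stood above the other MUL1(−/−) libraries. The means were 158 ± 5.54 CPM (SD, n = 3) and 1156 ± 167 CPM (SD, n = 3), a 7.33-fold difference and a log2 fold change of 2.87 (SE 0.09). OAT ranked number 116 from the highest of the tested genes.

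The gain of OAT was read in each of its well counted bins. All 23 bins with at least 100 counts in a library were higher in MUL1(−/−) without overlap, by 4.89-fold to 15.1-fold, with a median of 7.41-fold. Bins 8 to 28 gave 97.2% ± 0.0577 (SD, n = 3) of OAT counts in WT and 97.1% ± 0.0632 (SD, n = 3) in MUL1(−/−). Bins 3 to 7, between the first exon and the next well counted exon, held 96 counts over the WT libraries and 1108 over the MUL1(−/−) libraries, and differed 12.3-fold. These minor bins gave 0.146% ± 0.0559 and 0.245% ± 0.0266 (SD, n = 3) of OAT counts. The first exon, bins 1 and 2, differed 7.40-fold.

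The sequence around the start of OAT is shown because its first exon is where the gain could be read at the 5′ end, and that of ALDH18A1, the other entry into pyrroline-5-carboxylate, is set beside it for its small difference. Each is a RefSeq window on GRCh38.p14 from 250 bases before to 50 bases after the annotated start, written 5′ to 3′ on the minus strand, with capitals for bases that lie in the gene's deposited exon bins.
OAT, chr10:124418874-124419173: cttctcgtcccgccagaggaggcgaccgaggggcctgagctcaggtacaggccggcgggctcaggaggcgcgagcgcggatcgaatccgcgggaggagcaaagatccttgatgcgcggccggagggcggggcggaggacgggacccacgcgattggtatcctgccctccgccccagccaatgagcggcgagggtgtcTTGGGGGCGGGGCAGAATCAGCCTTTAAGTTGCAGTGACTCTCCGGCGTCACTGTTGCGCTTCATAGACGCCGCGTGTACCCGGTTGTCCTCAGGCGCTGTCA
ALDH18A1, chr10:95656662-95656961: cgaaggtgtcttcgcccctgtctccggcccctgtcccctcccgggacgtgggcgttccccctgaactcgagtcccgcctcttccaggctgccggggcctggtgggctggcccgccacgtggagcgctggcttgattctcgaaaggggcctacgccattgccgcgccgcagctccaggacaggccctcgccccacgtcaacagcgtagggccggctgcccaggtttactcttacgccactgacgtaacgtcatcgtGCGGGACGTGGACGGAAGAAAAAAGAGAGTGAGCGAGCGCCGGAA

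In OAT the first 40 capitals are a bin that held 0 to 2 counts per library. The capitals that follow belong to a bin of 64 bases, which held 577, 601 and 557 counts in WT and 3703, 3907 and 4640 in MUL1(−/−). The OAT window holds 33 CG steps and the ALDH18A1 window 31, where the median of 35116 RefSeq windows of this length was 14. CCAAT, searched on both strands, occurred in 2 places in the OAT window, 99 and 74 bases before the start, and in none of the ALDH18A1 window, against 34.6% of all windows with at least 1. It was also in 2 places in the window of ARG2 and in 3 in that of P4HB, enzymes that differed little, and in none of either ALDH4A1 window. CACGTG occurred in 1 place in the ALDH18A1 window, 136 bases before the start, and not in that of OAT, against 7.26% of all windows. TGATGNAA was in neither window, against 3.62% of all windows, and no match overlapped another. PYCR1, PYCR3 and PRODH had no entry in the promoter table. These matches describe letters only.

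ARG2, which splits arginine into urea and ornithine in mitochondria, was slightly higher in MUL1(−/−). It lies on the plus strand of chromosome 14 from 67619798 to 67651720 (ENSG00000081181). ARG2 had 35.3, 32.9 and 35.6 CPM in WT and 42.5, 40.2 and 37.0 CPM in MUL1(−/−). The genotypes did not overlap, though MUL1(−/−) replicate 3 came near the highest WT library. The means were 34.6 ± 1.46 and 39.9 ± 2.76 CPM (SD, n = 3), with a log2 fold change of 0.21 (SE 0.08).

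Much of the ARG2 count comes from the 3′ end, which lies across from VTI1B, a vesicle transport gene on the other strand. The 3 bins that both cover hold 51.5% of ARG2 counts, and counting is not stated to have used strand. In those bins the level was 18.3 ± 0.388 CPM in WT and 20.03 ± 1.37 CPM in MUL1(−/−), 1.09-fold. In the other 11 bins it was 16.3 ± 1.28 and 19.9 ± 1.44 CPM (SD, n = 3), 1.22-fold, and the log2 fold change from these bins alone was 0.29. VTI1B had a log2 fold change of 0.01 (SE 0.06).

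P4HB was the most counted of the 8 enzymes in WT and differed little between genotypes. It lies on the minus strand of chromosome 17 from 81843159 to 81860694 (ENSG00000185624), and 71.7 kb separate it from PYCR1. P4HB had 909, 842 and 980.2 CPM in WT and 998, 919.5 and 959 CPM in MUL1(−/−). The ranges overlapped, and the log2 fold change was 0.07 (SE 0.07), with means of 911 ± 68.9 and 959 ± 39.4 CPM (SD, n = 3). Of its 55 bins with at least 100 counts, 52 overlapped between genotypes. The antisense AC145207.3 shares 13.1% of P4HB counts.

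Per kb of exon bins of at least 200 bases, where a level depends less on reads that are counted in several short bins, the order of the 8 enzymes differed between the genotypes. In WT the highest were ALDH18A1 with 29.5 ± 1.58 and P4HB with 29.1 ± 2.09 CPM per kb, which did not differ beyond their spread. OAT followed with 21.3 ± 0.395, ARG2 with 13.1 ± 0.0726 and PYCR1 with 12.5 ± 1.49, the last pair again within their spread. ALDH4A1 with 4.67 ± 0.320 and PYCR3 with 4.15 ± 0.213 CPM per kb, which overlapped each other, came next, and PRODH was lowest with 0.0094 ± 0.0068. In MUL1(−/−) OAT led with 152 ± 23.7 CPM per kb, ahead of P4HB with 30.1 ± 1.01 and ALDH18A1 with 25.8 ± 0.261. PYCR1, with 0.107 ± 0.0240 CPM per kb, had moved below ALDH4A1 with 2.80 ± 0.128, and only PRODH was lower, with 0.0049 ± 0.0022 (SD, n = 3 throughout). For ARG2 the single bin of this size lies across from VTI1B. The order also depends on which bins reach this size. They hold 2689 of the 5303 bases of P4HB bins and 1435 of the 3766 of ALDH18A1. Over all bins P4HB had 911 and ALDH18A1 168 CPM in WT, so their closeness holds for the long bins only.

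The enzymes were then set beside the 10 tested genes on each side of them along the chromosome. Around OAT, with its log2 fold change of 2.87, the 20 flanking genes had a median of 0.07. The genes around PYCR1 had a median of -0.37, and 7 of 20 were called lower, among them AC145207.4, whose counts are all shared with PYCR1. MYADML2, a gene that overlaps PYCR1 on the same strand, fell by 1.76 on the log2 scale (SE 0.42; edgeR's quasi-likelihood test, adjusted p = 0.0040), from 0.156 to 0.0454 CPM. It had only 18, 25 and 22 counts in WT and 8, 3 and 7 in MUL1(−/−), and 20.5% of its counts lie in shared bins. MAFG-DT, whose nearest end lies 1.63 kb beyond the 3′ end of PYCR1, fell by 0.84 (SE 0.17), with an adjusted p of 0.0010 in the same edgeR test. PYCR1 less the median of its flank, which pools both sides, was at -7.26.

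ALDH4A1 and ALDH18A1 were near the level of their surroundings. Around ALDH4A1, 18 of 20 flanking genes had a log2 fold change below 0 and the median was -0.62, which leaves -0.07 for the enzyme. IFFO2, next to ALDH4A1 and under the same joined identifier, fell by 0.70 (SE 0.11; adjusted p = 2.0e-04 by edgeR's quasi-likelihood test). Of IFFO2 counts 40.7% lie in shared bins. The targeted gene MUL1 is also on chromosome 1, from 20499448 to 20508161, beyond these flanking genes. Around ALDH18A1 the median was -0.23, which leaves 0.02, so its direction turned. What makes neighbours move together was not tested. The flanks of PYCR3 (-0.05), ARG2 (0.02) and P4HB (-0.11) had medians near 0, and that of PRODH was at 0.22.

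Beyond the 8 enzymes, 9 lists of genes with related functions held 86 other genes, of which 80 were tested. By edgeR's quasi-likelihood test at an adjusted p of 0.05, 12 were higher and 24 lower in MUL1(−/−) and 44 did not pass. Without WT replicate 2, 6 were higher and 22 lower. Of all tested genes 18.7% were higher and 18.8% lower by this rule. The median log2 fold change of these tested genes was -0.03, and most of their changes were small: only 1 gene was also above a log2 fold change of 1 and only 1 below -1. These were P3H2 and SLC7A3.

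**Figure D3:**
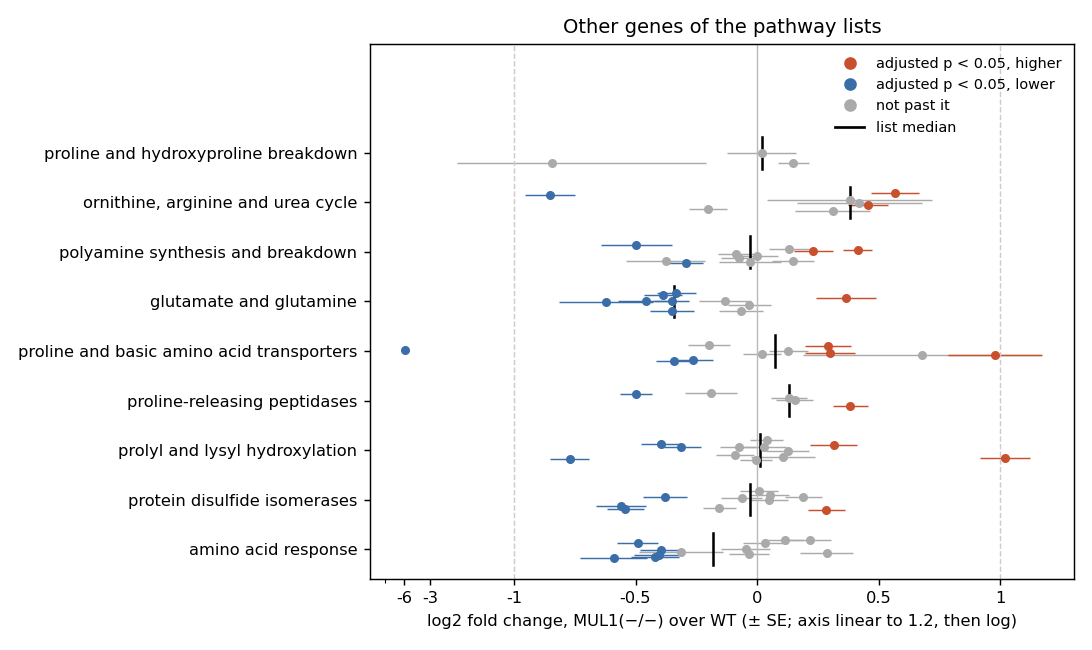
Log2 fold change (MUL1(−/−) over WT, ± SE, axis linear to 1.2 and logarithmic beyond) of the tested pathway genes other than the 8 enzymes, one line per list, with a bar at each list's median. Red points (12) and blue points (24) passed an adjusted p under 0.05, higher and lower, and SLC7A3 (-5.90) and P3H2 (1.02) are the points beyond 1 unit.

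In the ornithine, arginine and urea cycle list, where OAT and ARG2 belong, 7 of 10 other genes were tested, 2 rose and 1 fell, with a median of 0.38. This median is the value of ARG1 (SE 0.34), which had 16 to 46 counts a library and did not pass. The median was 0.01 with the most counted bin and 0.18 without WT replicate 1, so no common direction is read from it. CPS1, which makes carbamoyl phosphate in mitochondria, rose by 0.57 (SE 0.10), from 7.80 to 11.6 CPM. SLC25A15, which carries ornithine into mitochondria, rose by 0.46 (SE 0.08), from 23.3 to 32.03 CPM. ASS1, which joins citrulline with aspartate on the way to arginine, fell by 0.85 (SE 0.10), from 285 ± 49.0 to 158 ± 11.0 CPM (SD, n = 3). OTC, the urea cycle enzyme that uses ornithine, was counted at most 7 times in a library and was not tested.

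Ornithine also feeds polyamine synthesis, where 2 of 11 genes rose, 2 fell and the median was -0.03. ODC1, which takes ornithine into this route, was at 322 ± 21.8 in WT against 305 ± 19.4 CPM (SD, n = 3). Its log2 fold change of -0.08 (SE 0.07) did not pass the test, and it was picked for its place beside ornithine after its value was seen. OAZ1, the antizyme that restrains ODC1, rose by 0.41 (SE 0.06), from 863 to 1149.7 CPM, and spermine synthase SMS by 0.23 (SE 0.08). Spermidine synthase SRM fell by 0.29 (SE 0.07) and the oxidase PAOX by 0.50 (SE 0.14).

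On the glutamate side, 6 of 10 genes fell, 1 rose and the median was -0.34. Without MUL1(−/−) replicate 1 or 2, 4 fell, and without WT replicate 3, 7 fell. The count that rose was 0 without WT replicate 1 or 2 and without MUL1(−/−) replicate 1. Glutamate dehydrogenase GLUD1 fell by 0.35 (SE 0.07), from 156 ± 13.3 to 122 ± 2.45 CPM (SD, n = 3). The carriers SLC25A22 and SLC25A13 fell by 0.39 (SE 0.08) and 0.35 (SE 0.09), and the aminotransferase GOT1 by 0.33 (SE 0.08). GLUD2 fell by 0.62 (SE 0.19) at a low level, from 0.823 to 0.536 CPM, and the glutaminase GLS2 by 0.45 (SE 0.12). GPT, an alanine aminotransferase, rose by 0.37 (SE 0.12). GLUL, the glutamine synthetase and the most counted gene of the list, had 347 ± 61.7 and 316 ± 25.1 CPM (SD, n = 3) and did not pass. Of GLS2 counts 89.7% lie in bins shared with another gene.

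The list of proline and hydroxyproline breakdown had 3 tested genes beside PRODH and ALDH4A1, and none of them passed: 0 did by the adjusted p of edgeR's quasi-likelihood test, 0 by that of DESeq2 and 1 at an unadjusted p under 0.05. GOT2, the most counted, had 149.9 ± 6.42 and 166 ± 3.26 CPM (SD, n = 3), a log2 fold change of 0.15 (SE 0.06). Among peptidases that release proline, 5 of 6 were tested. XPNPEP1 fell by 0.50 (SE 0.07), from 155 to 109.9 CPM, and PREP rose by 0.38 (SE 0.07).

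P4HB belongs to 2 further lists. Among prolyl and lysyl hydroxylases and their partners, 2 of 12 other genes rose and 3 fell, with a median of 0.01. P3H2, a prolyl 3-hydroxylase on chromosome 3, had 5.49, 4.79 and 5.05 CPM in WT and 10.8, 10.7 and 9.54 CPM in MUL1(−/−), and rose by 1.02 (SE 0.10; adjusted p = 3.0e-06 in edgeR's quasi-likelihood test). The call of P3H2 lies at the fold threshold, since its value was 0.97 without WT replicate 2. P4HA1 and P4HA2, the catalytic subunits that P4HB binds, fell by 0.77 (SE 0.08) and 0.40 (SE 0.08), from 41.6 to 24.4 and from 41.5 to 31.5 CPM. PLOD2 rose by 0.31 (SE 0.10) and CRTAP fell by 0.31 (SE 0.08).

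Of 10 other protein disulfide isomerases and partners, 1 rose and 3 fell, with a median of -0.03. ERP44 rose by 0.28 (SE 0.08), while PDIA2 fell by 0.56 (SE 0.10), ERP29 by 0.54 (SE 0.08) and PDIA4 by 0.38 (SE 0.09). PDIA3, the most counted after P4HB, had 351 ± 37.8 and 364 ± 20.3 CPM (SD, n = 3).

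Among transporters of proline and basic amino acids, 10 of 12 were tested, 3 rose and 3 fell, with a median of 0.07. SLC7A3, an importer of arginine, lysine and ornithine, had 1.33, 1.46 and 0.987 CPM in WT and 7, 1 and 0 counts in MUL1(−/−), that is 0.0525, 0.0076 and 0 CPM. It fell by 5.90 on the log2 scale (SE 0.44; adjusted p = 1.7e-07 in edgeR's quasi-likelihood test). Its WT counts were 178, 218 and 131, so all libraries of WT lay above those of MUL1(−/−). With these few counts in MUL1(−/−) the size of the fall is not exact: it was -8.05 without MUL1(−/−) replicate 1, -5.34 without replicate 3 and -7.48 with the most counted bin. SLC38A2, the most counted, fell by 0.26 (SE 0.08), from 191 to 159 CPM, and SLC6A15, a transporter of neutral amino acids that include proline, by 0.34 (SE 0.07). SLC6A17 rose by 0.98 (SE 0.19) at a low level, SLC1A4 by 0.30 (SE 0.10) and SLC36A1 by 0.29 (SE 0.09).

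PYCR1 and ALDH18A1 are known as genes that ATF4 can drive when amino acids are short, so genes of that response were read as well. Of 12, 5 fell and 0 rose by the adjusted p of edgeR's quasi-likelihood test, with a median of -0.18. At an unadjusted p under 0.05, 2 were higher, and 2 were higher by the adjusted p of DESeq2. ATF4 fell by 0.41 (SE 0.10), from 358 ± 59.9 to 270.5 ± 20.3 CPM (SD, n = 3), although its ranges overlapped. In WT replicate 3, ASNS and ATF4 lay near or within the range of the MUL1(−/−) libraries: ASNS had 418, 391 and 246 CPM in WT and 219 to 246 CPM in MUL1(−/−), and ATF4 had 401, 384 and 290 CPM against 258 to 294 CPM. Without WT replicate 3, 6 of the list were lower and the median was -0.28, and without WT replicate 1, 5 were lower and the median was -0.05. SESN2 fell by 0.49 (SE 0.08), MTHFD2 by 0.42 (SE 0.10), DDIT3 by 0.40 (SE 0.08) and ASNS by 0.59 (SE 0.14). The largest differences the other way, in ATF3 and TRIB3, were 0.29 (SE 0.11) and 0.22 (SE 0.09) and did not pass the edgeR threshold. The mean of ATF3 went from 37.8 to 46.1 CPM with overlap, and that of TRIB3 from 17.7 to 20.6 CPM without overlap. With the replicate block or with no filter on low counts, 2 of the list were higher by the adjusted p, against 0 without WT replicate 1. The counts of ASNS (95.7%) and DDIT3 (72.9%) lie mostly in bins that other genes also cover. SHMT2, the most counted, had 546 ± 69.3 and 533 ± 19.7 CPM (SD, n = 3).

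By the measure used, the profile of PYCR1 over the 6 libraries lay closest to those of GAL, GSTP1 and SERP2. This was the root mean square difference of log2 CPM with a prior count of 2, each gene centred on its mean, and it was 0.282, 0.352 and 0.387 log2 units. For GAL and SERP2, the prior count sets the MUL1(−/−) values, so their places rest on it. GSTP1, a glutathione transferase, was at 66.5 ± 5.29 in WT against 0.253 ± 0.0448 CPM in MUL1(−/−) (SD, n = 3). GAL, which encodes the neuropeptide galanin, had 3.52 ± 0.583 CPM in WT and 0 counts in all MUL1(−/−) libraries. SERP2, a small protein of the endoplasmic reticulum, was at 3.54 ± 1.09 in WT against 0.0050 ± 0.0044 CPM in MUL1(−/−) (SD, n = 3), which is below the level of 3 counts in a library. These genes lie on chromosomes 11 and 13 and not beside PYCR1.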

How the data were processed

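RNA-seq of HEK293 cells gave 6 libraries, 3 labelled WT and 3 labelled MUL1(−/−). The values deposited by the authors are raw counts of reads in exon bins, with no normalization. The submitters' processing notes name Trimmomatic 0.36, STAR 2.5.2b and GRCh38, and the counting program and annotation release are not given in the sources used here. Each table lists 597973 exon bins under 54848 identifiers, of which 2031 join several genes. The plan assumed sums per gene, so counts were summed over bins. Bins of joined identifiers were given to genes by same-strand exons of GENCODE 29, with readthrough transcripts set aside, and a bin of several genes was counted for each. Gene spans were those of GENCODE 29 for 95.9% of genes compared, and 376 joined bins matched no gene. Since a read is counted in each bin it touches, sums exceed reads. The most counted bin of each gene totalled 26059158 to 28966399 in WT and 24490011 to 24812262 in MUL1(−/−).

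Gene counts were analysed in R 4.3.3 with edgeR 4.0.16 (TMM factors 0.946 to 1.03, filterByExpr, quasi-likelihood test, Benjamini-Hochberg adjustment over 25672 genes). Calls used an adjusted p under 0.05 with or without an absolute log2 fold change above 1. DESeq2 1.42.0 was an alternative. Python 3.11.15, numpy 2.4.6, pandas 2.3.3 and matplotlib 3.10.9 made tables and figures. On simulated counts of 25672 genes, 200 of them changed by 2 on the log2 scale, edgeR recovered 200 with 1 false call. Replicates differed by 3.09 to 9.70 times sampling noise (chi-square over degrees of freedom), so none was taken as a library deposited a second time.

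The members and lists were chosen with earlier results of these data known, and the members, though part of the fit, are described without p-values. Genes named are the 8 members, other list genes called by either rule, the most counted gene of each list, genes overlapping or nearest to a member, the 3 genes most like PYCR1 and MUL1. ODC1, OTC, TRIB3, ATF3, P4HA3 and further genes flanking PYCR1 were added after their values were seen, as were the stretches of bins and the sequence windows. Motif and promoter values used RefSeq windows. Metabolite and protein measurements were not used here. Of the genes planned, 1 is in no list or count and is not reported here.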

Additional observations from a re-analysis of the deposited data

How the results depend on the processing

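Of 14 alternatives, 13 refitted all genes (DESeq2, RLE size factors, 2 filters, the replicate block, the most counted exon bin, bins no other exon touches, each library left out in turn), and in all of these OAT was called higher and PYCR1 lower. By the adjusted p alone, 1 to 2 members were higher and 2 to 3 lower, where ARG2 was past it in 7 and ALDH18A1 in 8 of the 13 and OAT, PYCR1 and ALDH4A1 in all 13. Over all alternatives OAT lay between 2.75 and 2.97 and PYCR3 between 0.06 and 0.17. PYCR1 was at -7.34 with the most counted bin, -7.26 less its flank, and -7.79 to -7.51 with a library left out. ALDH18A1 turned to 0.020 less its flank. ALDH4A1 was at -0.75 with the most counted bin, -0.77 in unshared bins and -0.065 less its flank. ARG2 was at 0.052 with the most counted bin and 0.29 in unshared bins, and P4HB at 0.18 less its flank. PRODH ran from -1.29 to -0.26 with a library left out. PRODH did not pass the 1 CPM filter and had no value with the most counted bin. Requiring at least 1 CPM in at least 3 samples left 343 genes called higher and 444 lower, since fewer genes were tested, against 1070 and 985. With a library left out these ran from 1020 to 1282 and from 917 to 1085. Of the other pathway genes, 2 were called higher with no filter and 2 in unshared bins, 0 without WT replicate 2, 3 without WT replicate 3 and 2 without MUL1(−/−) replicate 1. As for those called lower, 0 remained at the 1 CPM filter, which SLC7A3 did not pass, and 2 were called with the most counted bin and 2 in unshared bins. SLC7A3 lay between -8.05 and -5.34 with a library left out. P3H2 was at 0.78 with the most counted bin and 0.97 without WT replicate 2. Except where a construction is named, the cause was not tested.

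The replicate numbers were not taken to pair the samples: across 16163 genes, the residuals of WT and MUL1(−/−) libraries with the same number had correlations of -0.108, 0.167 and 0.0997, against a mean of -0.023 for different numbers. With the replicate number as a block, 1028 genes were called higher and 952 lower, PYCR1 was at -7.64, OAT at 2.87, and no call by both criteria named in the report changed. By the adjusted p alone, 1 member was higher in place of 2.

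Depth limits PRODH, with 10 to 40 counts a library, and the bins of PYCR1 in MUL1(−/−). Counts cover several bins per read, shared bins cannot be divided between genes, and intervals from the libraries say nothing of other clones.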
